A study of Homo sapiens with 8 samples.

Results

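The ABL kinase pathway was followed through 8 genes, chosen by name with earlier results of these data known. They were the kinases ABL1 and ABL2, the adaptors CRK and CRKL, the interactors ABI1 and ABI2, the activator RIN1 and the substrate CTTN. Their symbols were matched to the Ensembl gene IDs of the count tables, and all 8 were found among 63677 genes. All 8 passed the filter on low counts in both comparisons. The cells were PC9, an EGFR-mutant line of human lung adenocarcinoma, and its subline PC9-BrM3, which is brain metastatic. There were 4 groups of 2 libraries. PC9 parental and PC9-BrM3 were untransduced and were grown for 48 h before RNA harvest. The shNTC and shHSF1 groups were PC9-BrM3 cells carrying a lentiviral, doxycycline-inducible Tet-pLKO hairpin, either a non-target control or 1 hairpin against HSF1, the transcription factor of the heat shock response. Both were selected in puromycin for 5 days and given doxycycline at 500 ng/mL for 48 h. Only 1 hairpin was used, so effects of lower HSF1 and other effects of that hairpin cannot be told apart.

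ABL1 and ABL2 are non-receptor tyrosine kinases that carry an actin-binding region and relay signals from growth factor receptors and integrins to the cytoskeleton. CRK and CRKL, built of SH2 and SH3 domains, are classical ABL substrates that link tyrosine-phosphorylated scaffolds to activators of small GTPases. ABI1 and ABI2 bind ABL kinases and are alternative subunits of the WAVE complex, which turns on the ARP2/3 actin nucleator. RIN1 is a RAS effector that activates ABL kinases and also RAB5 GTPases, and CTTN encodes cortactin, which stabilises branched actin and is phosphorylated by ABL kinases. ABL activity depends strongly on phosphorylation and binding partners, and transcript counts do not measure it.

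The loci, as the count tables give them in GRCh37, were separate. ABL1 (ENSG00000097007) lay on chromosome 9 from 133589333 to 133763062 and ABL2 (ENSG00000143322) on chromosome 1 from 179068462 to 179198819. CRK (ENSG00000167193) lay on chromosome 17 from 1323983 to 1366456 and CRKL (ENSG00000099942) on chromosome 22 from 21271714 to 21308037. ABI1 (ENSG00000136754) lay on chromosome 10 from 27035522 to 27150016 and ABI2 (ENSG00000138443) on chromosome 2 from 204192942 to 204312446. RIN1 (ENSG00000174791) and CTTN (ENSG00000085733) were both on chromosome 11, from 66097713 to 66104311 and from 70244510 to 70282690. Reads were counted over all exons of a gene, so isoforms and start sites of one gene were not separated.

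Library totals ran from 33550140 to 56715336 counts. Per the file headers, lane 7 held the untransduced libraries and lane 1 those with a hairpin, so each comparison was made within a lane. Between the sets, lane, transduction and doxycycline cannot be told apart, and levels across them are given side by side only. PC9-BrM3 replicate 2 stood apart, with 17.3% of its counts from mitochondrial genes against 1.4% to 6.23% in the other libraries. Whether the replicates were separate cultures is not given, and p-values therefore measure only the spread between these libraries, which may be technical. Of 9 markers of lung epithelium, 7 exceeded 1 CPM (read counts scaled to a common library size) in some library, with a summed level of 3286 to 7008 CPM. NKX2-1 and NAPSA, which mark lung lineage cells, stayed under 1 CPM. The 6 haematopoietic markers summed to 0.503 to 1.07 CPM and the 6 fibroblast markers to 0 to 0.0965 CPM. Of the endothelial and brain lists only VWF, CDH5 and MBP passed 1 CPM, and PECAM1, CLDN5 and OLIG2 were at 0 in every library. EPCAM, CDH1 and 4 keratins were high in every library, and the lung lineage markers were low or near 0. The epithelial sum was 5365 to 5757 CPM in shNTC and 6868 to 7008 CPM in shHSF1, CDH5 was 44.8 and 37.4 CPM against 24.6 and 18.4 CPM, and MBP was 129.8 and 122.8 CPM against 103.5 and 94.2 CPM. Between PC9 parental and PC9-BrM3 the epithelial sum was 3286 to 3584 CPM against 3841 to 4246 CPM. CDH5 was 55.4 and 51.7 CPM against 32.6 and 24.8 CPM, and MBP 156.3 and 162.2 CPM against 113.2 and 104.2 CPM. SFTPB was 11.6 and 15.8 CPM against 1.58 and 2.61 CPM. The part of these marker differences in the results was not tested. In bulk RNA fewer cells of a type and less RNA per cell cannot be told apart.

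HSF1 is a DNA-binding factor, and its heat shock elements are inverted repeats of the letters GAA, so windows around the annotated starts are shown for the genes the knockdown comparison turns on. RefSeq windows in GRCh38.p14, with 250 bases before to 50 after the start, were found for 7 of the 8 genes (not for CTTN). A 30-base stretch of HSPA8, a constitutive HSP70 gene, shows what such an element looks like (chr11:123062170-123062199, minus strand), with the repeats in capitals. Below it stand the stretch around the single match among the 7 windows, in RIN1 (chr11:66336410-66336439, minus strand), and the 250 bases before the starts of ABL1 (chr9:130835004-130835253, plus strand), ABL2 (chr1:179143077-179143326, minus strand) and CRKL (chr22:20917157-20917406, plus strand), which hold no match and are all in lower case.
HSPA8: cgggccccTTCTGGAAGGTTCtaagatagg
RIN1: actggattctcTTCCTGAAgcgaaggagct
ABL1: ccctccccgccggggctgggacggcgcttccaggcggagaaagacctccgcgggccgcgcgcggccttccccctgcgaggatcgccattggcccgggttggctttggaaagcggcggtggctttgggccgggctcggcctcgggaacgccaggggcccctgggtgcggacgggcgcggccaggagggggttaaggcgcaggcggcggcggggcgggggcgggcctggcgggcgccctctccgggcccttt
ABL2: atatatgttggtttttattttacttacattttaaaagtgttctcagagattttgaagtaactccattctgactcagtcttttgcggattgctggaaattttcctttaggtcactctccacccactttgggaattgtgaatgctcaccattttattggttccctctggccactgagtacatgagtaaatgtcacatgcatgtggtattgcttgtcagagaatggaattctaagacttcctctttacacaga
CRKL: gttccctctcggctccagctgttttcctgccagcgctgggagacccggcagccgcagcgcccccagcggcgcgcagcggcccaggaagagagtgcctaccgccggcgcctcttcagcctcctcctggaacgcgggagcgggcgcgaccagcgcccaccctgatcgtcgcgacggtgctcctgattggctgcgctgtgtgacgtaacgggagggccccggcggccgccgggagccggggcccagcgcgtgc

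The letters searched were GAANNTTC and TTCNNGAA, each its own reverse complement, so that 1 search covers both strands, and the motifs may overlap. Either one occurred in 13.5% of all 35116 windows of this length. The RIN1 match covered positions 7 to 14, with the annotated start counted as the first base. A match of these letters is a description of the window and not a binding site. The windows differed in base composition: ABL1, CRK, CRKL and ABI2 had GC contents of 74.7% to 78.3%, ABI1 and RIN1 of 62% and 62.7%, and ABL2 of 39%. The ABL2 window belongs to a start that lies 86608 bases downstream of the first coding transcript start in GENCODE v29 on the same build, where 6 distinct coding starts are annotated. That of ABL1 lies 121308 bases downstream of the first of 3. Which start these cells used was not measured.

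The question of the knockdown comparison is how transcript levels in PC9-BrM3 change when HSF1 is lowered. With shHSF1, the 8 genes moved in both directions. The ABL and CRK paralogs moved apart: ABL2 rose 3.23-fold while ABL1 fell 1.55-fold, and CRKL fell 2.6-fold while CRK rose 1.49-fold. RIN1 fell 1.63-fold. ABI2 and CTTN were lower by smaller amounts, and ABI1 did not pass the test. In all 7 of 8 passed, 2 higher and 5 lower, by edgeR's quasi-likelihood test with Benjamini-Hochberg adjustment at 0.05. Of all 16840 genes tested 45.7% passed, 22.2% higher and 23.5% lower, and among tested genes with a mean of at least 10 CPM, the range of these genes, 57.6% passed. The median log2 change of the 8 genes was -0.24, against 0.01 over all genes tested. The 8 genes were chosen with earlier results of these data known, so 7 of 8 is no sign of an excess. HSF1 itself had 180.5 and 182.3 CPM in shNTC and 15.7 and 13.3 CPM in shHSF1, which matched the labels. Untransduced PC9-BrM3 had 54.8 and 51.9 CPM and PC9 parental 47 and 50.4 CPM, so for HSF1 the shNTC group stood above both untransduced groups and shHSF1 below them.

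**Figure D1:**
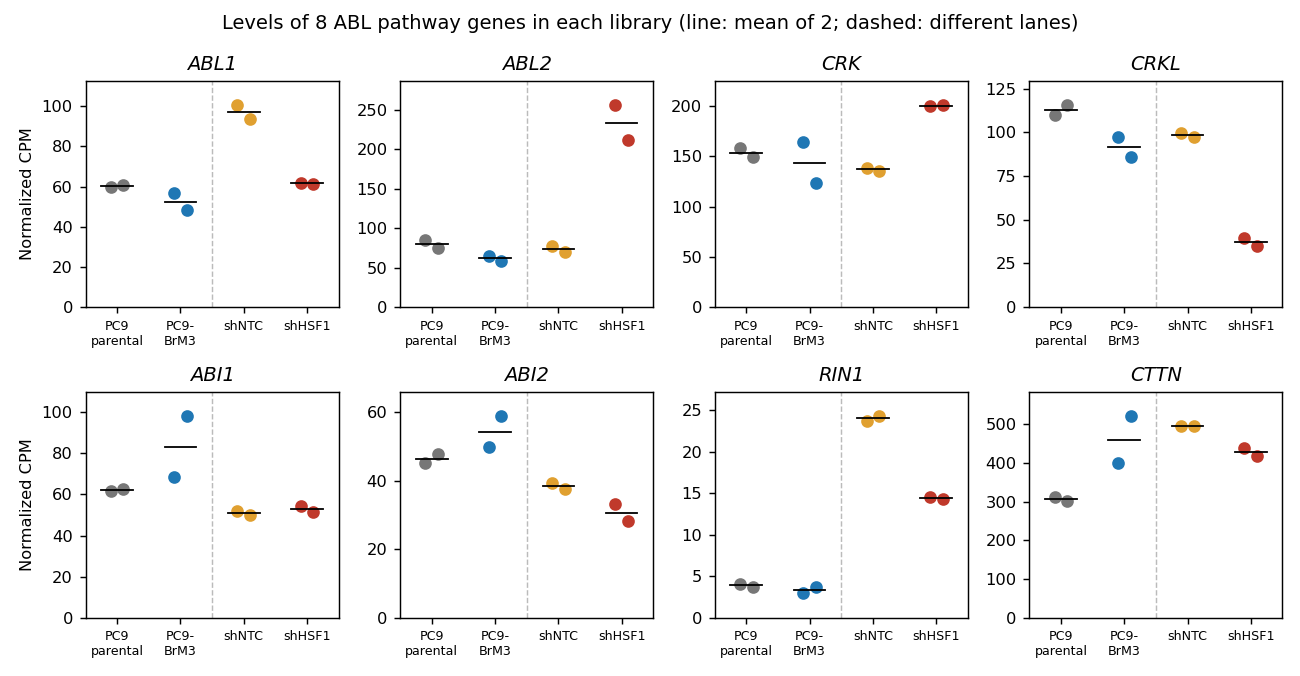
Normalized CPM (read counts per library scaled by TMM, linear axes from 0) of the 8 genes in each of the 8 libraries, with a line at each group's mean and a dashed line between the libraries of lane 7 and lane 1. ABL2 and CRKL in shHSF1 lie outside the range of every other group, at 255.9 and 211.8 CPM for ABL2 and 39.6 and 34.7 CPM for CRKL.

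ABL2, the paralog also called ARG, stood at 77.3 and 70.3 CPM in the shNTC libraries and at 255.9 and 211.8 CPM in the shHSF1 libraries. The groups did not overlap, and both shHSF1 libraries were far above both controls. The log2 fold change was 1.69 ± 0.08 (SE, n = 2 per group; edgeR adjusted p = 5.02e-07). Only 3.34% of all tested genes changed by as much in either direction. In untransduced cells ABL2 had 84.4 and 74.6 CPM in PC9 parental and 65 and 58.7 CPM in PC9-BrM3. The shNTC libraries overlapped those of PC9 parental, and the shHSF1 libraries lay above all others.

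ABL1, the cellular form of the kinase fused to BCR in chronic myeloid leukaemia, stood at 100.5 and 93.7 CPM in shNTC and at 61.7 and 61.4 CPM in shHSF1. Both control libraries were higher than both knockdown libraries. The log2 fold change was -0.63 ± 0.07 (SE, n = 2 per group; edgeR adjusted p = 4.24e-05), and 24.9% of tested genes changed by as much or more. Untransduced cells had 59.7 and 60.7 CPM in PC9 parental and 56.8 and 48.2 CPM in PC9-BrM3. For ABL1 it was thus the shNTC group that stood above the other 3 groups, whereas for ABL2 it was shHSF1.

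CRKL, a prominent substrate of the BCR-ABL fusion in leukaemia cells, stood at 99.5 and 97.5 CPM in shNTC and at 39.6 and 34.7 CPM in shHSF1. No other group came near the shHSF1 values, with 110.2 and 115.6 CPM in PC9 parental and 97.4 and 86.2 CPM in PC9-BrM3. The log2 fold change was -1.38 ± 0.07 (SE, n = 2 per group; edgeR adjusted p = 6.81e-07), a size that 5.35% of tested genes reached.

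CRK, its paralog and the cellular form of a viral oncogene, went the other way. It had 138.4 and 135.9 CPM in shNTC and 200.1 and 200.9 CPM in shHSF1, without overlap. The log2 fold change was 0.58 ± 0.06 (SE, n = 2 per group; edgeR adjusted p = 2.77e-05). In untransduced cells it had 158 and 149.3 CPM in PC9 parental, and 164.3 and 123.1 CPM in PC9-BrM3, so the PC9-BrM3 pair spanned the parental pair.

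RIN1 had 23.7 and 24.3 CPM in shNTC and 14.5 and 14.3 CPM in shHSF1, with a log2 change of -0.71 ± 0.09 (SE, n = 2 per group; edgeR adjusted p = 0.00019). The groups did not overlap and each pair lay close together. RIN1 also had the widest gap between the lanes among the 8 genes: untransduced PC9-BrM3 had 2.96 and 3.7 CPM and PC9 parental 4.03 and 3.74 CPM. Even the lower shHSF1 libraries were above all 4 untransduced ones. Because lane, transduction and doxycycline differ together, no test was made of that gap.

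ABI2 had 39.2 and 37.6 CPM in shNTC and 33.1 and 28.1 CPM in shHSF1. Its log2 fold change was -0.30 ± 0.09 (SE, n = 2 per group; edgeR adjusted p = 0.0198). CTTN had 495.0 and 494.7 CPM in shNTC and 439.4 and 418.0 CPM in shHSF1, a log2 change of -0.18 ± 0.05 (SE, n = 2 per group; edgeR adjusted p = 0.023). Neither gene overlapped between the groups, but both changes were small, and 53% and 69.8% of all tested genes changed by as much or more. Both calls were lost under upper-quartile factors (edgeR adjusted p = 0.0598 for ABI2 and 0.112 for CTTN), without shNTC replicate 1 (0.0852 and 0.063), without shNTC replicate 2 (0.0552 and 0.0917) and without shHSF1 replicate 2 (0.136 and 0.111). With all 8 libraries in 1 fit they were lost too (0.119 and 0.348), and that of CTTN also without shHSF1 replicate 1 (0.0732). The calls of ABL1, ABL2, CRK, CRKL and RIN1 held in all 12 alternatives.

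ABI1, the other WAVE complex interactor, had 52 and 49.9 CPM in shNTC and 54.6 and 51.6 CPM in shHSF1. These ranges overlapped, and the log2 fold change was 0.09 ± 0.07 (SE, n = 2 per group; edgeR adjusted p = 0.316). In all, libraries of the groups did not overlap for 7 of the 8 genes, where 72.8% of all tested genes showed no overlap.

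**Figure D2:**
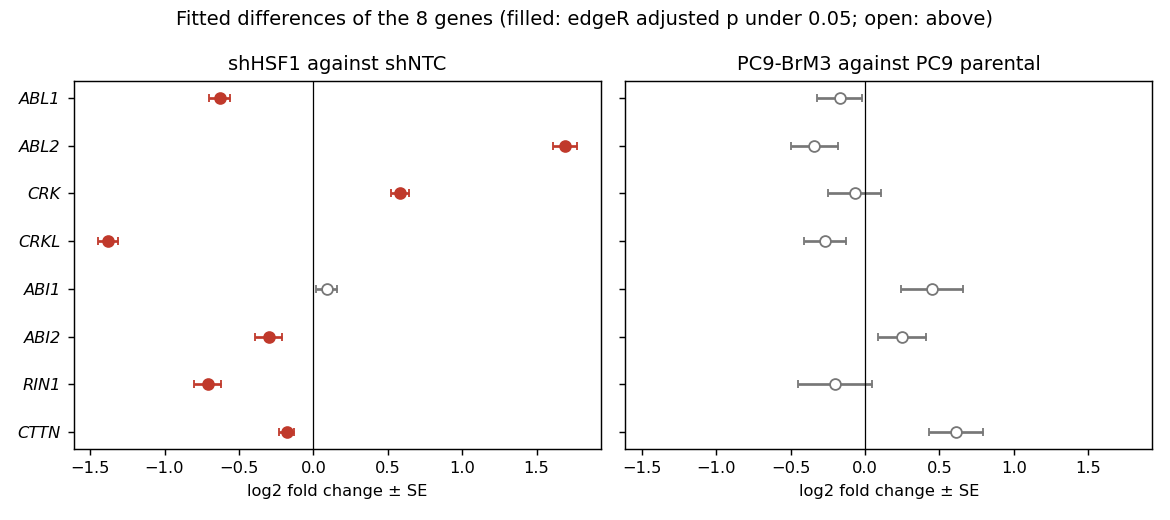
Log2 fold changes (x axis, points) with their standard errors (bars) for the 8 genes in the knockdown comparison (left) and the subline comparison (right), n = 2 libraries per group. On the left 7 of 8 points are filled, from -1.38 for CRKL to 1.69 for ABL2, and on the right 0 are filled.

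The balance within each paralog pair was taken from reads per kilobase of exon within a library, which does not depend on scaling between libraries. ABL2 made up 26.7% and 26.2% of the ABL1 and ABL2 sum in the shNTC libraries and 66.3% and 62% in the shHSF1 libraries. ABL1 was thus the more abundant kinase transcript per kilobase in shNTC, and ABL2 in shHSF1. In untransduced cells the ABL2 share was 40.1% and 36.8% in PC9 parental and 35.1% and 36.6% in PC9-BrM3. The widest 95% exact binomial interval of these shares, in PC9-BrM3 replicate 2 with 3612 reads, ran from 35% to 38.1%, and such intervals cover counting error only. The sum of both kinases was 21 ± 1.15 CPM per kilobase in the control libraries and 27.4 ± 2.39 with shHSF1 (SD, n = 2 each).

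CRKL made up 35.6% and 35.5% of the CRK and CRKL sum in shNTC and 13.2% and 11.7% in shHSF1. In PC9 parental the share was 34.9% and 37.3%, and in PC9-BrM3 31.3% and 35%, so shHSF1 stood below all 6 other libraries. The sum of the pair was 52 ± 0.712 CPM per kilobase in the control libraries and 56 ± 0.509 with shHSF1 (SD, n = 2 each), a smaller difference than either gene showed alone. ABI2 made up 12.1% in both shNTC libraries and 9.97% and 9.03% in the shHSF1 libraries of the ABI1 and ABI2 sum. It was 11.8% and 12.2% in PC9 parental and 11.7% and 9.86% in PC9-BrM3, so PC9-BrM3 replicate 2 lay within the range of shHSF1. With 2 against 2 libraries an exact permutation test of a share cannot go below p = 0.333, so no test of the shares was made.

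**Figure D3:**
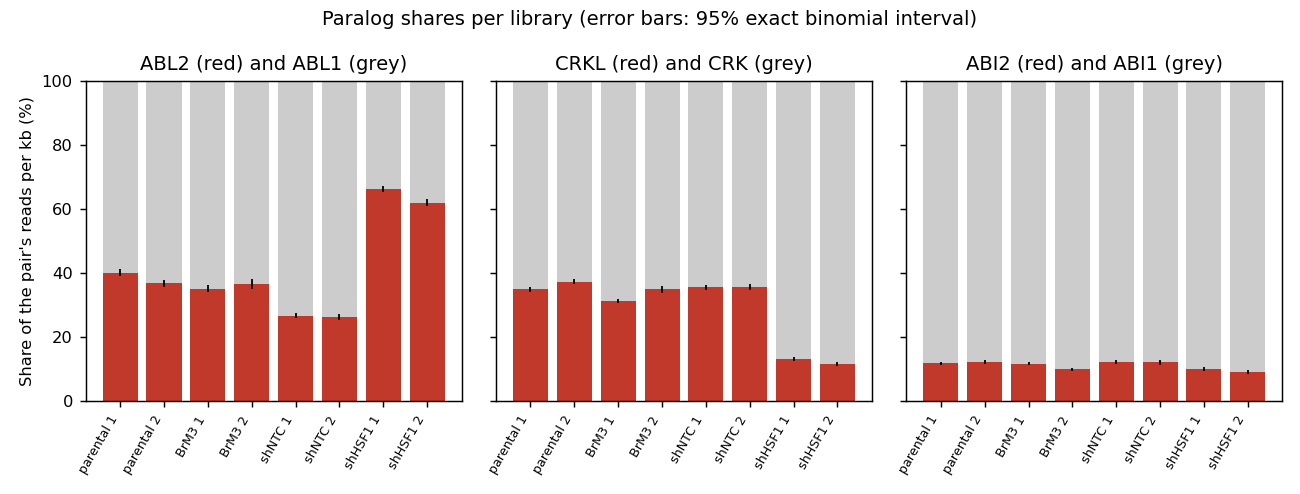
Share of each paralog pair's reads per kilobase of exon (y axis, percent) in each of the 8 libraries, with 95% exact binomial intervals as error bars. The ABL2 share is 26.7% and 26.2% in shNTC and 66.3% and 62% in shHSF1, and the CRKL share 35.6% and 35.5% against 13.2% and 11.7%.

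On the per-kilobase scale the order of the levels in shNTC was CTTN (71.2 ± 0.0371 CPM per kilobase), CRK (33.5 ± 0.442), CRKL (18.5 ± 0.27), ABL1 (15.5 ± 0.775), ABI1 (12 ± 0.351), ABL2 (5.57 ± 0.373), RIN1 (4.39 ± 0.0838) and ABI2 (1.65 ± 0.0494; SD, n = 2 each). In shHSF1 ABL2 had moved up to the third place, at 17.6 ± 2.35, and CRKL down to the sixth, at 6.97 ± 0.651. CTTN and CRK led in all 4 groups. In PC9-BrM3 ABI1 (19.7 ± 4.97) and CRKL (17.2 ± 1.48) were neighbours whose libraries overlapped. The ABI2 model counts 23220 exon bases against 4236 for ABI1, so its per-kilobase level depends on exons that these cells may not use.

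The subline comparison asks which transcripts differ between the brain metastatic cells and their parental line. By edgeR's quasi-likelihood test 0 of the 8 genes passed at an adjusted p of 0.05, where 7.14% of all 17372 tested genes passed. At an unadjusted p under 0.05 there was 1 of the 8, CTTN, beside 4368 of all 17372 genes tested. DESeq2 called 0 of the 8, where 12.7% of all genes tested passed. Of all genes tested 3.87% were higher in PC9-BrM3 and 3.27% lower, and of those with a mean of at least 10 CPM 6.05% passed. For each of the 8 genes other than ABL2 the PC9-BrM3 libraries lay further apart in CPM than those of any other group. CTTN had 313.4 and 301.4 CPM in PC9 parental and 399.8 and 521.7 CPM in PC9-BrM3. Both PC9-BrM3 libraries were higher, and the log2 fold change was 0.61 ± 0.18 (SE, n = 2 per group; edgeR adjusted p = 0.113). CTTN passed with either PC9-BrM3 library left out, at 0.80 without replicate 1 and 0.38 without replicate 2 on the log2 scale (edgeR adjusted p = 2.7e-07 and 0.00346). It also passed with no count filter (edgeR adjusted p = 0.0234) and with all 8 libraries in 1 fit (0.0169). In those fits 10.6% and 21% of all tested genes passed. Of 12 alternatives 4 called CTTN. DESeq2 did not (adjusted p = 0.0647). Without PC9 parental replicate 1 or 2 it did not pass either, at 0.63 and 0.56 on the log2 scale.

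ABI1 had 61.9 and 62.5 CPM in PC9 parental and 68.4 and 98.2 CPM in PC9-BrM3, a log2 change of 0.45 ± 0.21 (SE; edgeR adjusted p = 0.253). Most of this lay in PC9-BrM3 replicate 2, the library with 17.3% mitochondrial counts, and without it the value was 0.14. With mitochondrial genes left out of the fit the value was 0.43 (edgeR adjusted p = 0.266). Whether the state of that library had a part in the result was not tested. ABI2 had 45.2 and 47.7 CPM in PC9 parental against 49.8 and 58.9 CPM in PC9-BrM3, a log2 change of 0.25 ± 0.16 (SE; edgeR adjusted p = 0.371).

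ABL2 had a log2 change of -0.34 ± 0.16, ABL1 of -0.17 ± 0.15 and CRKL of -0.27 ± 0.14 (SE, n = 2 per group; edgeR adjusted p = 0.24, 0.514 and 0.294). For each of these 3 genes both PC9-BrM3 libraries lay below both parental libraries. RIN1 had -0.20 ± 0.25 and CRK -0.07 ± 0.18 (SE; edgeR adjusted p = 0.647 and 0.819). CRK changed sign to 0.09 without PC9-BrM3 replicate 2. With PC9-BrM3 replicate 1 left out 7 of the 8 genes passed, RIN1 being the exception, and with replicate 2 left out 2 did, ABL2 and CTTN. In the same fits 51.1% and 30.8% of all tested genes passed, so the count without replicate 2 was not above the general share. In such a fit the lone library is taken to vary like the parental pair. For 7 of the 8 genes PC9-BrM3 and parental libraries showed no overlap, as did 58.8% of all genes tested.

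A wider ABL network was described from a list of 86 further genes: the rest of the WAVE complex, the ARP2/3 complex with cortactin partners, CRK and NCK scaffolds, other ABL substrates and binding partners, the RIN family with RAB5, and the SRC family. Of these 85 were found by symbol (not CYFIP1) and 70 passed the count filter in the knockdown comparison. There 30 were higher and 18 lower with shHSF1, which is 68.6% of those tested beside 45.7% of all genes. Their median log2 fold change was 0.16, beside 0.01 over all genes. Among all tested genes with a mean of at least 10 CPM 57.6% passed. The list was chosen with earlier results of these data known. PSTPIP2, among the 30, passed the count filter only through shHSF1. The 68.6% is therefore no sign of an excess. With all 8 libraries in 1 fit 17 of 74 tested network genes passed, or 23%, beside 21.4% of all genes in that fit.

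**Figure D4:**
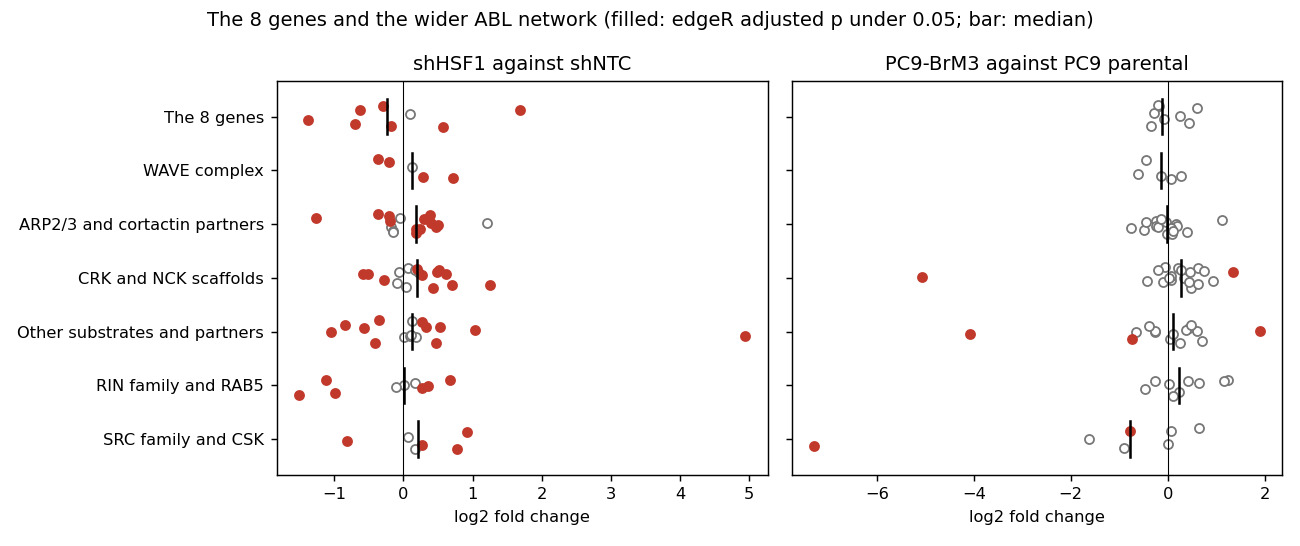
Fitted log2 fold changes (x axis) of the 8 genes and of 6 lists of the wider ABL network, 1 point per gene tested, filled where the edgeR adjusted p was under 0.05, with a bar at each list's median, for the knockdown (left) and subline (right) comparisons. Filled points are on both sides of 0 in each list on the left, while on the right 7 points of the wider network are filled. The outermost point on the right is BLK, whose fitted value depends on counts of 0 in PC9-BrM3.

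The RIN family and RAB5 GTPases, the early endosome regulators on which RIN1 acts, held 3 higher and 3 lower of 9 genes. RAB5C fell from 71.7 and 69.8 CPM to 24.3 and 24.4 CPM, with a log2 change of -1.51 ± 0.07 (SE; edgeR adjusted p = 3.48e-07). RAB5A, another form of the GTPase, fell by 0.99 ± 0.09 on the log2 scale (edgeR adjusted p = 1.35e-05), and RINL, a RIN1 relative, fell by 1.11 ± 0.12 (5.32e-05). RAB5B rose from 36.8 and 34.8 CPM to 59.6 and 51.9 CPM (log2 fold change 0.67 ± 0.08; edgeR adjusted p = 0.000106). The 3 RAB5 genes therefore differed in direction. Over all genes tested 22.2% were higher and 23.5% lower, and how often paralogs differ in direction among them was not measured. EEA1, a tether of early endosomes, and RABEP1, a RAB5 effector, rose by 0.35 and 0.26 on the log2 scale, but both calls were lost with all 8 libraries in 1 fit (edgeR adjusted p = 0.43 and 0.397), and that of RABEP1 also without shNTC replicate 1.

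Among CRK and NCK scaffolds 8 of 17 tested genes were higher and 3 lower, beside 22.2% higher and 23.5% lower over all genes tested. GAB2, a docking protein that recruits signalling enzymes below receptor kinases, rose from 50.6 and 51.5 CPM to 124.4 and 113.9 CPM (log2 fold change 1.25 ± 0.07, SE; edgeR adjusted p = 6.69e-07). The adaptor paralogs NCK1 and NCK2 went opposite ways, with log2 fold changes of -0.51 ± 0.10 and 0.62 ± 0.08 (SE; edgeR adjusted p = 0.00183 and 0.000159), as did the ubiquitin ligases CBL and CBLC at -0.59 ± 0.06 and 0.70 ± 0.09. PXN, the focal adhesion scaffold paxillin, had -0.28 ± 0.06. With all 8 libraries in 1 fit the calls of NCK2 and PXN were lost (edgeR adjusted p = 0.0602 and 0.0873).

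The SRC family and CSK held 3 higher and 1 lower of 6 tested genes, beside 22.2% higher and 23.5% lower over all genes tested. FYN rose from 84.3 and 77.4 CPM to 149.6 and 149.7 CPM and LYN from 55.6 and 54.5 CPM to 92.8 and 90.9 CPM, with log2 fold changes of 0.92 ± 0.06 and 0.77 ± 0.06 (SE; edgeR adjusted p = 3.42e-06 and 9.22e-06). SRC itself, a kinase that phosphorylates ABL kinases, fell from 37.4 and 36.2 CPM to 20.9 and 20.2 CPM (-0.81 ± 0.08; edgeR adjusted p = 3.11e-05). FRK, a SRC-related kinase, rose by 0.27, and its call was lost without shNTC replicate 1, without shNTC replicate 2, without shHSF1 replicate 1 and with all 8 libraries in 1 fit.

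In the WAVE complex, where ABI1 and ABI2 sit, 2 genes were higher and 2 lower of 5 tested. The shares over all genes tested, for this list and the next, were 22.2% higher and 23.5% lower. WASF1 rose by 0.71 ± 0.08 and BRK1 by 0.28 ± 0.07, while WASF2, the WAVE protein of most cell types, had -0.37 ± 0.07 and NCKAP1 -0.20 ± 0.05 (SE; edgeR adjusted p of 0.0133 or less). Of 17 tested genes of the ARP2/3 complex and cortactin partners 8 were higher and 4 lower, with changes of 0.47 ± 0.07 for ACTR3, 0.40 ± 0.07 for ARPC5 and 0.39 ± 0.06 for ARPC3. ACTR2, the partner of ACTR3 in the complex, had -0.21 ± 0.06 and WIPF2, a WASP-binding protein, -0.37 ± 0.06 (edgeR adjusted p = 0.0173 and 0.000759). HCLS1, the haematopoietic relative of cortactin, was at a low level. It had 1.34 and 1 CPM in shNTC against 0.571 and 0.386 CPM in shHSF1 (edgeR adjusted p = 0.0106). With all 8 libraries in 1 fit the calls of WASF1, BRK1, WASF2, NCKAP1, ARPC3, ARPC5, HCLS1 and ACTR2 were lost. The calls of BRK1, NCKAP1, HCLS1 and ACTR2 were also lost without shNTC replicate 1, that of NCKAP1 without shHSF1 replicate 1, and those of HCLS1 and ACTR2 without shHSF1 replicate 2. Upper-quartile factors ended the calls of NCKAP1 and ACTR2, and DESeq2 that of HCLS1. Reads of some of these genes may be shared with processed pseudogenes and are uncertain to that extent.

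Among other ABL substrates and binding partners 6 of 16 were higher and 5 lower, beside 22.2% higher and 23.5% lower over all genes tested. ROBO1, an axon guidance receptor whose tail ABL phosphorylates, rose from 15.5 and 16 CPM to 30.5 and 32.8 CPM (log2 fold change 1.03 ± 0.09, SE; edgeR adjusted p = 1.68e-05), and CAV1, the caveolae protein, rose by 0.53 ± 0.06. ENAH, an actin filament elongator, fell by 0.42 ± 0.06 on the log2 scale. CABLES2 had a log2 change of -0.58, and with all 8 libraries in 1 fit the calls of both were lost (edgeR adjusted p = 0.103 and 0.0757). PSTPIP2, a membrane-curving F-BAR protein, went from 3 and 2 counts to 78 and 62 counts, a ratio of 31.8 (95% counting interval 13.3 to 99.5), and passed the count filter only through shHSF1.

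In the subline comparison 2 of the 71 tested network genes were higher in PC9-BrM3 and 5 lower, or 9.86% beside 7.14% of all genes. ELMO1 and BLK, among the 5, passed the count filter only through PC9 parental, where they were higher, so this share is no sign of an excess. ROBO1 and CAV1 went the opposite way to their changes in the knockdown, while NCK2 was higher in both comparisons. ROBO1 went from 56.1 and 62 CPM in PC9 parental to 2.26 and 4.71 CPM in PC9-BrM3 (log2 fold change -4.08 ± 0.37, SE; edgeR adjusted p = 0.00606). In shNTC, which is PC9-BrM3 on the other lane, ROBO1 had 15.5 and 16 CPM. CAV1 and CSK, the kinase that restrains SRC family members, had log2 fold changes of -0.74 ± 0.14 and -0.78 ± 0.16 (edgeR adjusted p = 0.0372 and 0.043). NCK2 was higher, at 21.8 and 33.6 CPM against 11.2 and 10.8 CPM (1.36 ± 0.25; edgeR adjusted p = 0.0367), and so was SORBS2 (1.91 ± 0.33; 0.0311). ELMO1, part of a RAC activator that works with CRK, had 50 and 45 counts in PC9 parental and 1 and 1 in PC9-BrM3, a ratio of 38.1 (95% counting interval 10.3 to 319). BLK had 26 and 18 counts against 0 and 0, at least 11.8-fold lower when 3 counts are taken as the limit over the group. The calls of NCK2, SORBS2, CAV1 and CSK were lost without PC9 parental replicate 1 and without replicate 2, that of BLK without replicate 1, and those of CAV1 and CSK also with the replicate number as a block. The calls of ROBO1 and ELMO1 were kept in all 12 alternatives.

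Among the genes whose pattern over the 8 libraries was most like that of ABL2 were SMAD7, an inhibitor of TGF-beta signalling (Pearson r = 0.992), CYB5R4 (0.992), SEMA7A, a membrane-anchored semaphorin (0.991), and PLK2, a polo-like kinase (0.988). They were taken from 11091 genes with a mean of at least 5 CPM, on log2(CPM + 1). Each was highest in both shHSF1 libraries, as ABL2 was, with PLK2 at 338.4 and 298.0 CPM there and 101.3 and 88.3 CPM in shNTC. Those most like ABL1 were ZFP41 (0.995), HNRNPA0, an RNA-binding protein (0.995), PLIN4 (0.988), PDPR2P (0.985) and MAPK13, a p38 kinase (0.983). Each was highest in both shNTC libraries, as ABL1 was, with HNRNPA0 at 314.6 and 273.9 CPM in shNTC and 147.2 and 139.9 CPM in shHSF1. These values describe 8 libraries that share lanes and groups, and with 8 points many genes reach a high r.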

How the data were processed

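The authors deposited raw read counts per Ensembl gene, 1 table per library. Per the file headers, reads were counted with featureCounts 1.6.1 over exons grouped by gene ID, on the reverse strand, using Ensembl's gene models on GRCh37. HISAT2, Trim Galore and DESeq2 are named per the submitters' processing notes, without versions. Strand-aware counting separates genes on opposite strands, such as ABI2 and RAPH1.

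Each comparison was fitted on its own 4 libraries with edgeR 4.0.16 in R 4.3.3: genes were kept by filterByExpr at a count of 10 and a total of 15, scaled by TMM and tested with the robust quasi-likelihood F test, with Benjamini-Hochberg adjustment over all genes tested and a threshold of 0.05. The standard error is the log2 fold change divided by the square root of F. Levels are CPM on TMM-scaled library sizes over all 8 libraries. Alternatives were DESeq2 1.42.0, other factors, no filter, 1 fit of all 8 libraries, a replicate block, robust off and each library left out. A fit without mitochondrial genes was chosen after seeing the data. A count of 0 allows 0.0529 to 0.0894 CPM, from 3 counts over the library total before TMM scaling. The fit was run on simulated data with far fewer changed genes than the knockdown comparison called, so that test does not cover such a setting.

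The 8 genes and the gene lists were chosen with earlier results of these data known. Named genes were the 8, HSF1, up to 3 called genes per list and direction with the smallest adjusted p in each comparison, and the 5 genes most correlated with ABL1 and with ABL2 at a mean of at least 5 CPM; some genes that this rule names are not reported here. HSPA8 was added for its sequence. Promoter windows are RefSeq's on GRCh38.p14 and were not set against GRCh37 positions.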

Additional observations from a re-analysis of the deposited data

How the results depend on the processing

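In the knockdown comparison 85 of the alternative values of the 8 genes kept their direction and their side of the threshold, 11 (ABI2 and CTTN) lost the call and 0 changed sign. In the subline comparison 84 kept both, 11 gained a call and CRK, at -0.28 without PC9-BrM3 replicate 1, changed sign to 0.09 without replicate 2. With all 8 libraries in 1 fit the knockdown comparison called 3873 genes instead of 7701 and 17 network genes instead of 48, while the subline comparison called 3813 genes instead of 1240, 23 network genes instead of 7 and 1 of the 8. That comparison gave 2203 genes and 14 network genes by DESeq2, and 3159 genes, 19 network genes and 1 of the 8 with no count filter. With 1 library left out it gave 402 to 9228 genes, 2 to 49 network genes and 0 to 7 of the 8. The extremes came without PC9 parental replicate 1 and without PC9-BrM3 replicate 1. The cause was not tested. Mitochondrial genes left out moved none of the counts by over 1.5 times.

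With the replicate number as a block the counts were 8015 genes, 49 network genes and 7 of the 8 in the knockdown, and 1328, 8 and 0 in the subline comparison. Deviations of same-numbered libraries were correlated at 0.021 and -0.009, so no pairing by number was seen. With 2 libraries per group this check cannot exclude a shared batch, and the labels do not state one.

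Without division by exon length the mean ABL2 share was 56.9%, 54.1%, 43.2% and 79.1% in PC9 parental, PC9-BrM3, shNTC and shHSF1, in place of 38.4%, 35.8%, 26.4% and 64.1%. The CRKL share was 42.4%, 39.2%, 41.8% and 15.6%, and the ABI2 share 42.8%, 39.8%, 43% and 36.5%, in the same order. The order of shNTC and shHSF1 was the same on both scales for each pair. Depth did not limit the 8 genes, whose smallest count was 125, for RIN1.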
